A study of Mus musculus with 18 samples.

Results

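The comparison covers label-retaining cells, called YFP-LRC, against Paneth cells, both sorted from the intestinal epithelium of the same mice. It uses 12 of the 18 arrays of the series, 6 per population, chosen by the population and mouse number in their titles, and all 16358 genes that could be assigned a value. All mice carried YFP fused to histone H2B and driven by the promoter of Cyp1a1, were female and 99 to 109 days old, and had been given beta-naphthoflavone (βNF), which switches the fusion on, 10 days before cells were taken. YFP-LRC were the cells that stained for CD24, did not bind the lectin UEA-1 and still held YFP. Paneth cells were those that stained for CD24 and bound UEA-1, with no gate on YFP stated, so the Paneth sort may itself hold labelled cells. The third population, LCC, shared the CD24 and UEA-1 gate of YFP-LRC but lacked YFP, and its levels are given below as context. From each sort 30000 cells were taken, and 8 ng of RNA was amplified for Affymetrix Mouse Exon 1.0 ST arrays. Each array is 1 population of 1 mouse, and the 6 mice came from separate litters by their labels. The litter label of the YFP-LRC array of mouse 6 differs from that of the other arrays with that number by the order of its digits, while the age is the same. Counts of calls without mouse 6 are given below.

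Cells that stop dividing keep a histone label, while dividing cells dilute it. Paneth cells sit at the base of small intestinal crypts and secrete lysozyme, defensins and other antimicrobial proteins from large granules. Enteroendocrine cells are scattered secretory cells that sense gut contents and release peptide hormones, tuft cells are chemosensory cells that make eicosanoids and interleukin-25, and goblet cells secrete mucins. All of these arise from dividing crypt stem cells marked by Lgr5. CD24 is carried by several secretory cell types of the crypt, and UEA-1 binds sugars that end in fucose.

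Values are the deposited log2 signals, and a gene's value on an array is the median over its probe sets. A difference is YFP-LRC minus Paneth on the log2 scale, with the standard error of a paired limma fit in which each mouse is a block, and a gene was called at a Benjamini-Hochberg adjusted p under 0.05 over all genes. Errors after a mean are SD with n = 6 arrays. The correlation between 2 arrays over all genes was 0.907 to 0.964 within YFP-LRC, 0.929 to 0.964 within Paneth and 0.91 to 0.964 between them. The median gene value was 6.54 to 6.60 on the YFP-LRC arrays and 6.53 to 6.65 on the Paneth arrays. In sorted bulk samples, fewer cells of a type and less RNA per cell cannot be told apart.

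Few genes separated YFP-LRC from Paneth. Of 16358 genes, 11 were called higher (0.0672%) and 75 were called lower (0.458%) in YFP-LRC. The higher genes were led by the hormone gene Gip and held 6 other members of the enteroendocrine lists below. The lower genes held 3 Paneth cell products, 11 tuft cell genes, 3 pan-leukocyte genes and 1 gene of the myeloid list. A change of at least 2-fold was seen for 8 of the higher (0.0489% of all genes) and 47 of the lower genes (0.287%). All 86 called genes changed in the same direction in all 6 mice. The values of both populations did not overlap for 7 of the 11 higher and 58 of the 75 lower genes, against 0.183% (higher), 0.605% (lower) and 0.789% (either) of all genes. The calls rest on these same values, so neither count is separate support for them. The unadjusted p was under 0.05 for 539 genes with a positive (3.3%) and 902 with a negative difference (5.51%). These shares of all genes are the reference for the list counts below.

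The number of calls depended on single mice. The 75 lower genes became 19 without mouse 2, 25 without mouse 3, 49 without mouse 4 and 37 without mouse 5. The 47 genes at least 2-fold lower became 19 without mouse 2 and 25 without mouse 3. The 11 higher genes became 6 without mouse 2 and 7 without mouse 3. Without mouse 6, whose litter labels differ, 9 were higher and 58 lower. Called in all 6 fits that left out 1 mouse were the higher genes Gip, Fabp5, Nefm, Rfx6 and Chgb, and 18 lower genes. Those 18 were Adgrg2, Ang4, C4bp, Ccnj, Cd300lf, Fbxl21, Il17rb, Matk, Mptx1, Plek, Plekho2, Ptgs1, Ptprc, Rac2, Sec1, Siglecf, Skap2 and Strip2. Adgrg2, Plekho2 and Skap2 were named after their values were seen.

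**Figure D1:**
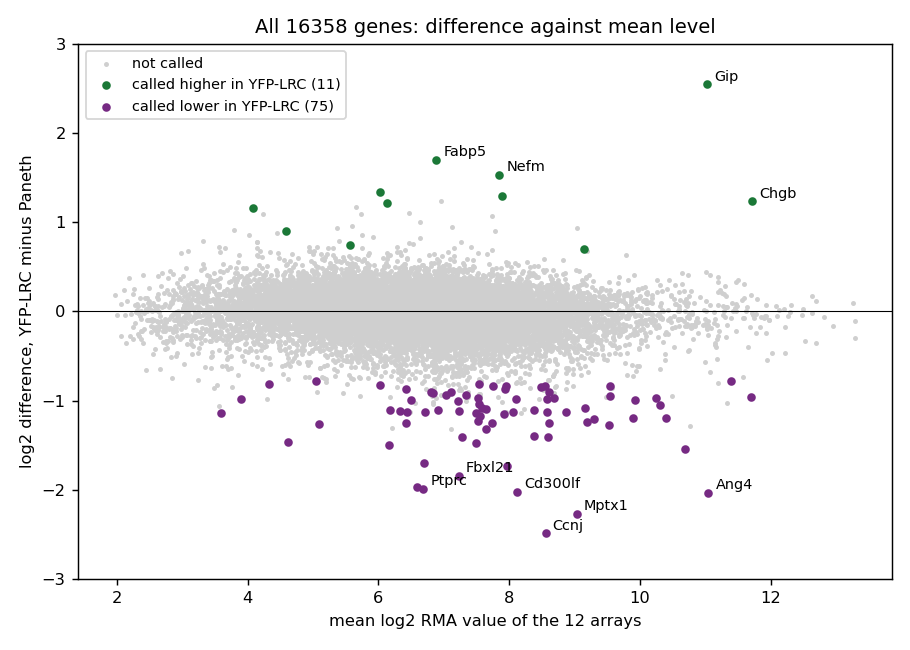
Difference in log2 value, YFP-LRC minus Paneth (vertical axis), against the mean log2 value of the 12 arrays (horizontal axis) for 16358 genes, with 1 point per gene. The 11 called higher and 75 called lower genes are coloured. Gip stands highest at 2.55 and Ccnj lowest at -2.49.

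Gip had the largest positive difference of all genes tested. It encodes glucose-dependent insulinotropic polypeptide, an incretin hormone that enteroendocrine K cells of the upper gut release after a meal. Its lowest, median and highest values were 12.08, 12.30 and 12.52 in YFP-LRC, against 9.14, 9.60 and 10.43 in Paneth. The lowest YFP-LRC array was thus above the highest Paneth array, and the difference within a mouse ran from 1.74 to 3.10. The fitted difference was 2.55 ± 0.19 (5.85-fold higher; limma adjusted p = 0.000292), and all 7 probe sets of the gene were higher in YFP-LRC. In LCC, Gip stood at 11.76 ± 0.38.

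The other genes with high values in YFP-LRC included granule proteins, transcription factors, channel subunits and a neurofilament. Chgb, a granin that packs hormone granules, had 11.98, 12.32 and 12.75 as lowest, median and highest value in YFP-LRC and 10.62, 11.20 and 11.45 in Paneth, with no overlap. It was higher by 1.23 ± 0.14 (limma adjusted p = 0.00446), in 10 of 10 probe sets. Chga, its relative in the same granules, had 7.94, 8.33 and 9.69 in YFP-LRC and 7.17, 7.25 and 7.31 in Paneth. The YFP-LRC arrays thus spread widely (SD 0.65) above a narrow Paneth range (SD 0.07), and Chga rose by 1.30 ± 0.21 (limma adjusted p = 0.0195). Its call ended without mouse 2 or 5 (adjusted p up to 0.108). The LCC arrays ran from 11.71 to 12.58 for Chgb and from 7.62 to 8.55 for Chga, overlapping YFP-LRC for both genes.

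Rfx6, a transcription factor required for enteroendocrine and pancreatic islet cells in mice, averaged 6.70 ± 0.53 in YFP-LRC and 5.36 ± 0.37 in Paneth. It rose by 1.34 ± 0.16 (2.53-fold; limma adjusted p = 0.00446), with all 18 probe sets in the same direction. Etv1, an ETS family transcription factor, averaged 6.74 ± 0.23 in YFP-LRC and 5.53 ± 0.39 in Paneth and rose by 1.21 ± 0.19 (limma adjusted p = 0.0152), a call that ended without mouse 2, 3 or 5 (adjusted p up to 0.0644). Both sets of values stood apart, while LCC lay between them at 5.90 ± 0.45 for Rfx6 and 6.08 ± 0.41 for Etv1.

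Fabp5, a carrier of fatty acids inside cells, had 7.23, 7.83 and 7.93 as lowest, median and highest value in YFP-LRC and 5.63, 6.05 and 6.42 in Paneth, and rose by 1.70 ± 0.18 (3.25-fold; limma adjusted p = 0.00266). Nefm, the medium neurofilament subunit, averaged 8.61 ± 0.30 in YFP-LRC and 7.08 ± 0.34 in Paneth and rose by 1.53 ± 0.17 (limma adjusted p = 0.00446), in 9 of 9 probe sets. The groups did not overlap for either gene. Both kept the call without any 1 mouse.

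For the 4 other higher genes, the values of both groups overlapped. Ghrl, which encodes the hunger hormone ghrelin, averaged 9.49 ± 0.37 in YFP-LRC and 8.79 ± 0.51 in Paneth and rose by 0.70 ± 0.13 (limma adjusted p = 0.0423). Leaving out any 1 of the 6 mice ended that call (adjusted p up to 0.154). In LCC, Ghrl ran from 8.56 to 9.88. Cacna2d1, an accessory subunit of voltage-gated calcium channels, rose by 0.90 ± 0.14 (limma adjusted p = 0.014), a call that ended without mouse 2 or 3 (up to 0.0712). Kcnj5, an inward-rectifier potassium channel opened by G proteins, rose by 0.75 ± 0.14 (limma adjusted p = 0.0421) and lost the call without mouse 2, 3, 4, 5 or 6. Olfr402, an olfactory receptor gene with 1 probe set, completed the 11. It fell outside the naming rule and was named after its value of 1.16 ± 0.16 was seen, and it lost the call without mouse 2 (adjusted p = 0.0502). Ghrl, Cacna2d1 and Kcnj5 also lost the call when mice were not matched.

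**Figure D2:**
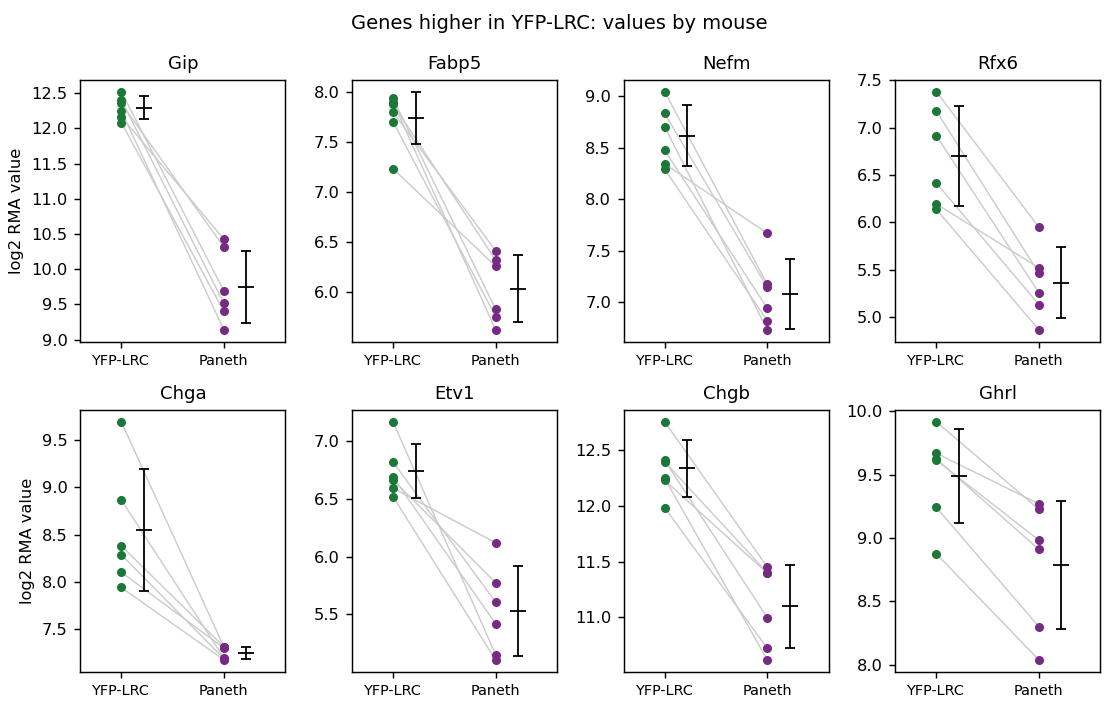
Log2 values of 8 genes called higher in YFP-LRC, with 1 point per array, YFP-LRC on the left and Paneth on the right of each panel, lines joining arrays of 1 mouse, and bars giving mean and SD (n = 6). The Gip points lie at 12.08 to 12.52 in YFP-LRC and 9.14 to 10.43 in Paneth, while the Ghrl points of both groups overlap.

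The start regions of Gip and Chga are shown as the genomic context of the hormone and granule genes that rose, from 250 bases before to 50 after the annotated start, from RefSeq in build GRCm38.p6. Gip lies at chr11:96024295-96024594 (plus strand) and Chga at chr12:102554691-102554990 (plus strand). Capitals mark 4 searched motifs on either strand, the GATA factor motif AGATAA, the E-box CAGATG of basic helix-loop-helix factors, the POU factor octamer ATGCAAAT and the TATA box TATAAA. The GATA motif was added to the search after the Gip sequence was seen.
Gip: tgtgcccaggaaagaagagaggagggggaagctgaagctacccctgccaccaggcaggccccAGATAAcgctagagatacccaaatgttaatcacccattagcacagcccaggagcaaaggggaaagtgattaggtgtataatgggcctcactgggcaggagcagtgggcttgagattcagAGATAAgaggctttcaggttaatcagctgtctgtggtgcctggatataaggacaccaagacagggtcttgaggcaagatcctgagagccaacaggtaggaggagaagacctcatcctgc
Chga: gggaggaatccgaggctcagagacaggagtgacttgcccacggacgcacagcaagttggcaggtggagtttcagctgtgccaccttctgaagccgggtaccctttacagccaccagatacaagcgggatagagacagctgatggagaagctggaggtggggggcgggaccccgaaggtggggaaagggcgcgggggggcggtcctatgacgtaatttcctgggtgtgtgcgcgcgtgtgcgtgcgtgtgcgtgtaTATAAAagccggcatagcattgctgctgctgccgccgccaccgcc
The Gip region holds 2 matches to AGATAA, and the Chga region holds 1 to TATAAA. Of 9 higher genes with a start region in the table, 1 held AGATAA, 1 held TATAAA, and 0 held CAGATG or ATGCAAAT. Over all 13077 genes with a region, the shares were 9.24% for AGATAA, 12.3% for TATAAA, 13.7% for CAGATG and 1.74% for ATGCAAAT. A match describes letters alone and shows no binding.

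Among enteroendocrine genes as a group, most differences were positive but few passed the test. The median difference of 17 measured hormone genes was 0.23, against 0.0026 for all genes. Of the 17, 2 rose (Gip and Ghrl), 0 fell and 15 did not pass, against 0.0672% of all genes called higher. The 2 became 1 without mouse 1, 3, 4, 5 or 6 and when mice were not matched, and 4 when only genes above the median level were tested. Gcg, which encodes glucagon-like peptides, averaged 8.28 ± 0.48 in YFP-LRC and 7.20 ± 0.64 in Paneth (difference 1.08 ± 0.22, limma adjusted p = 0.0776). It was called with all 18 arrays and the block, with the mean over probe sets, among genes above the median level and without mouse 2, and was not called under the other 13 alternatives (limma adjusted p of 0.0145 to 0.263 over all of them). Cck, the cholecystokinin gene, differed by 0.84 ± 0.21 (limma adjusted p = 0.165). Pyy, a hormone of the lower gut, differed by 0.23 ± 0.15 (limma adjusted p = 0.723). Sst, the somatostatin gene of D cells, had a difference of the other sign (-0.40 ± 0.16, limma adjusted p = 0.506). Counted at an unadjusted p under 0.05, 5 hormone genes were higher and 2 lower. The largest negative difference of the list was that of Nucb2 (-0.95 ± 0.20, limma adjusted p = 0.0824), named after its value was seen.

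Of 26 measured granin, prohormone processing and granule genes, 2 rose (Chga and Chgb), 0 fell and 24 did not pass. The median difference was 0.31, and 21 members were positive. At an unadjusted p under 0.05, 12 of the 26 were higher and 0 lower, against 3.3% and 5.51% of all genes. The mean over the list was 6.59 to 7.08 on the YFP-LRC arrays and 6.21 to 6.38 on the Paneth arrays, so the arrays of both groups stood apart. The count of 2 became 1 without mouse 2 or 5, 4 when mice were not matched or when only genes above the median level were tested, and 5 with the mean over probe sets. Scg3, a granin of the sorting step, averaged 7.60 ± 0.76 in YFP-LRC and 6.65 ± 0.35 in Paneth (difference 0.95 ± 0.22, limma adjusted p = 0.133), and Pcsk1, which cuts prohormones, differed by 0.29 ± 0.16 (limma adjusted p = 0.665). Scg2, a granin cleaved to neuropeptides, differed by 0.38 ± 0.15 (limma adjusted p = 0.488).

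The median difference of 20 measured enteroendocrine transcription factors was 0.17. Of the 20, 2 rose (Rfx6 and Etv1), 0 fell and 18 did not pass, against 0.0672% of all genes called higher. The 2 became 1 without mouse 2, 3 or 5, and 5 when a gene's value was the mean over its probe sets. Over the 12 arrays, Rfx6 and Etv1 both lie below the median gene level. Leaving out genes below that level thus dropped both untested, and 0 list members were then called. Neurod1, a factor of endocrine differentiation, averaged 6.75 ± 0.10 in YFP-LRC and 6.06 ± 0.31 in Paneth, without overlap (difference 0.69 ± 0.15, limma adjusted p = 0.0887). Pax6, a factor needed for several hormone-producing cells, differed by 0.59 ± 0.16 (limma adjusted p = 0.214), and both it and Neurod1 were called with the mean over probe sets. Neurog3, the factor that starts the endocrine lineage, differed by 0.22 ± 0.14 (limma adjusted p = 0.707; 95% interval -0.08 to 0.52). Of 16 ion channel genes of excitable endocrine cells, Cacna2d1 alone was called, and of 11 nutrient-sensing receptors 0 were called, with medians of 0.25 and 0.11. For the receptors, 2 had an unadjusted p under 0.05.

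Paneth cell products were lower in YFP-LRC for 3 of 18 measured genes (against 0.458% of all genes), while 0 rose and 15 did not pass. The other 12 of the 30 listed, among them several defensins and the related genes Ang5, Ang6 and Mptx2, had no probe set assigned to them alone. Whether the signal of Ang4 and Mptx1 includes such relatives was not tested. Ang4, a ribonuclease of the angiogenin family with antimicrobial activity that Paneth cells secrete in mice, had 9.36, 9.91 and 10.99 as lowest, median and highest value in YFP-LRC and 11.64, 12.10 and 12.35 in Paneth. The groups did not overlap, and Ang4 fell by 2.04 ± 0.24 (4.1-fold lower; limma adjusted p = 0.00454) in both of its probe sets. Mptx1, a mucosal pentraxin of Paneth cells, had 7.35, 7.85 and 8.60 in YFP-LRC and 9.58, 10.10 and 11.17 in Paneth, and fell by 2.27 ± 0.30 (4.83-fold lower; limma adjusted p = 0.00814). Its 5 probe sets disagreed, with 3 lower and 2 higher in YFP-LRC over a range of -2.54 to 1.14, and with the mean over probe sets it was not called (adjusted p = 0.112). Nupr1, a small stress-induced nuclear protein, fell by 0.96 ± 0.16 (limma adjusted p = 0.0295), and its call ended without mouse 1, 2, 3, 4 or 5 (up to 0.121).

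The start regions of Mptx1 and Ang4 are shown because these were the most strongly lower of the Paneth cell products, with the same window, build and motifs as above. Mptx1 lies at chr1:174330268-174330567 (plus strand) and Ang4 at chr14:51773541-51773840 (minus strand).
Mptx1: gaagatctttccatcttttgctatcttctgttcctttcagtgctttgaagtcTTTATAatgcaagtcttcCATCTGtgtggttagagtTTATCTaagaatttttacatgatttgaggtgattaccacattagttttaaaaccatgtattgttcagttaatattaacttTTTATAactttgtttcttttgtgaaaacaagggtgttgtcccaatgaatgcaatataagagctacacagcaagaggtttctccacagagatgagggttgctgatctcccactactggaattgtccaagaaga
Ang4: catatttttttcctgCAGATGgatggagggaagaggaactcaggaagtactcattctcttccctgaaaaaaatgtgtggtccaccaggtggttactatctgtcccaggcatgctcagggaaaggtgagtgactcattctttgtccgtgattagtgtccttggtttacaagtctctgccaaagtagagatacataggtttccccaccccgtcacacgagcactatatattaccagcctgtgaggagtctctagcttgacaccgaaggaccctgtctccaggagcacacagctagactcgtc
Mptx1 has 4 motif matches, 1 to CAGATG, 1 to AGATAA and 2 to TATAAA, all on the strand opposite to the gene, and Ang4 has 1 match to CAGATG. Of the 64 lower genes with a region, 13 held CAGATG (20.3%), 6 TATAAA (9.38%), 5 AGATAA (7.81%) and 0 ATGCAAAT.

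The best known Paneth markers did not pass the test. Lyz1, the lysozyme of Paneth granules, averaged 13.13 ± 0.15 in YFP-LRC and 13.43 ± 0.16 in Paneth (difference -0.30 ± 0.13, 95% interval -0.58 to -0.02, limma adjusted p = 0.526). Mmp7, the protease that activates Paneth defensins in mice, averaged 10.79 ± 0.34 in YFP-LRC and 11.60 ± 0.36 in Paneth (difference -0.80 ± 0.21, interval -1.27 to -0.34, limma adjusted p = 0.21). Itln1, an intelectin that binds microbial sugars, differed by -0.47 ± 0.18 (limma adjusted p = 0.477). Pla2g2a, a phospholipase that attacks bacterial membranes, differed by -0.58 ± 0.22 (limma adjusted p = 0.477). The intervals of Lyz1, Mmp7, Itln1 and Pla2g2a all lay below 0, though the adjusted p missed the threshold. With the mean over probe sets Mmp7 was called, and the list then had 6 lower members. It had 5 without mouse 6. Over the list, 15 of 18 differences were negative, with a median of -0.47. An unadjusted p under 0.05 in that direction was seen for 12 of the 18, against 5.51% of all genes. In LCC, Lyz1 stood at 13.09 ± 0.19 and Mmp7 at 9.77 ± 0.46.

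Tuft cell genes made up the largest called group among the lists. Of 31 measured, 11 fell in YFP-LRC, 0 rose and 20 did not pass, against 0.458% of all genes called lower. The 11 were Ptgs1, Krt23, Bmx, Ptpn6, Il17rb, Alox5, Matk, Rgs13, Fyb, Sh2d7 and Trpm5. The median difference was -0.72, 27 of 31 members were negative, and 22 were lower at an unadjusted p under 0.05. The mean over the list was 7.29 to 7.92 on the YFP-LRC arrays and 7.91 to 8.69 on the Paneth arrays, and it was lower in YFP-LRC in 6 of 6 mice, though the highest YFP-LRC array lay just above the lowest Paneth array. The count of 11 became 3 without mouse 2, 3 without mouse 3, 7 without mouse 4, 7 without mouse 5, and 7 after a second quantile normalization.

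Ptgs1, the cyclooxygenase that starts prostaglandin synthesis, had 6.37, 6.55 and 6.78 as lowest, median and highest value in YFP-LRC and 7.32, 7.89 and 8.79 in Paneth. The groups did not overlap, the YFP-LRC arrays were the tighter, and Ptgs1 fell by 1.41 ± 0.17 (2.66-fold lower; limma adjusted p = 0.00565) in 17 of 17 probe sets. Alox5, which starts leukotriene synthesis, fell by 1.10 ± 0.17 (limma adjusted p = 0.0195), a call that ended without mouse 2, 3, 4 or 5 (up to 0.0778). Il17rb, a subunit of the receptor for interleukin-25, averaged 6.68 ± 0.41 in YFP-LRC and 7.80 ± 0.28 in Paneth and fell by 1.11 ± 0.14 (limma adjusted p = 0.00565) in 16 of 16 probe sets. Trpm5, the cation channel at the last step of taste-like transduction, fell by 0.85 ± 0.16 (limma adjusted p = 0.0481), with overlapping groups. Its call ended without mouse 2, 3, 4, 5 or 6 (up to 0.19). The LCC arrays ran from 6.05 to 6.40 for Ptgs1 and 6.08 to 6.88 for Alox5. They ran from 5.40 to 6.68 for Il17rb and 7.41 to 7.91 for Trpm5, and overlapped YFP-LRC for each of these genes.

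The other called tuft genes encode signalling proteins and a keratin. Matk, a kinase that restrains Src family kinases, averaged 7.05 ± 0.25 in YFP-LRC and 8.13 ± 0.39 in Paneth and fell by 1.09 ± 0.13 (limma adjusted p = 0.00446), a call kept without any 1 mouse. In LCC, Matk ran from 6.65 to 7.62. Bmx, a Tec family kinase, fell by 1.32 ± 0.20 (limma adjusted p = 0.0137), Rgs13, which shortens G protein signals, fell by 1.05 ± 0.15 (limma adjusted p = 0.0123), and the keratin Krt23 fell by 1.40 ± 0.20 (limma adjusted p = 0.0123). The calls of Bmx, Rgs13 and Krt23 ended without mouse 2 or 3. The phosphatase Ptpn6 fell by 1.12 ± 0.20 (limma adjusted p = 0.041). The adaptor Fyb fell by 1.00 ± 0.18 (limma adjusted p = 0.041), and Sh2d7, which carries an SH2 domain, fell by 0.98 ± 0.16 (limma adjusted p = 0.0203). Ptpn6 lost the call without mouse 1, 2, 3, 4 or 6 (up to 0.144), Fyb without mouse 1, 2, 3 or 5 (up to 0.175), and Sh2d7 without mouse 1, 2, 3, 4 or 5 (up to 0.0798). Other signalling members of the list did not pass, among them the phosphatase Inpp5d (-0.96 ± 0.19, limma adjusted p = 0.0776), the exchange factor Vav1 (-0.84 ± 0.21, limma adjusted p = 0.19) and the phospholipase Plcg2 (-0.42 ± 0.15, limma adjusted p = 0.421), which were named after their values were seen. Inpp5d was called under 5 of the 17 alternatives, among them the mean over probe sets and the fit without matched mice.

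The factor that specifies tuft cells in mice, Pou2f3, averaged 8.59 ± 0.33 in YFP-LRC and 8.74 ± 0.23 in Paneth (difference -0.16 ± 0.14, 95% interval -0.47 to 0.15, limma adjusted p = 0.808). Gfi1b, a repressor found in tuft cells, differed by -0.33 ± 0.12 (limma adjusted p = 0.463). Dclk1, the kinase most used as a tuft marker, averaged 9.53 ± 0.32 in YFP-LRC and 10.25 ± 0.45 in Paneth, with 29 of 29 probe sets lower (difference -0.72 ± 0.17, limma adjusted p = 0.129), and it was called with the mean over probe sets. Lrmp, known from tuft cells and lymphocytes, fell by 1.11 ± 0.15 (limma adjusted p = 0.0096), and the epithelial keratin Krt18 fell by 0.78 ± 0.14 (limma adjusted p = 0.0381). Both were named after their values were seen. Lrmp lost its call without mouse 2 (0.0523) and Krt18 without any 1 mouse (up to 0.157).

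**Figure D3:**
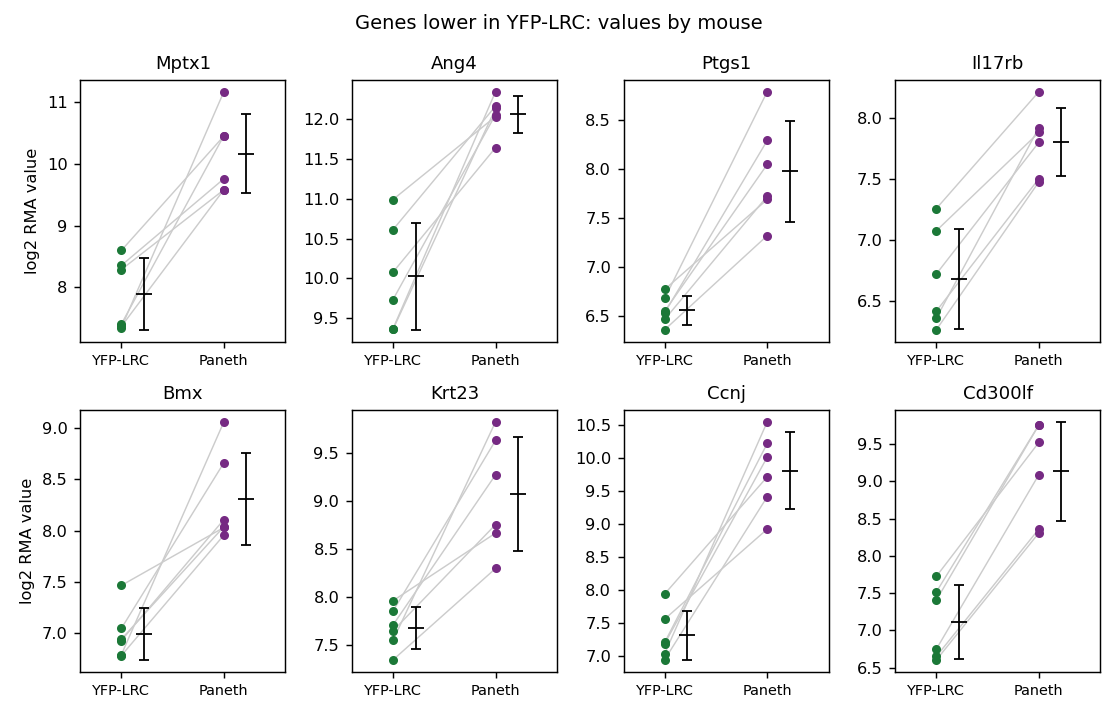
Log2 values of 8 genes called lower in YFP-LRC, with 1 point per array, YFP-LRC on the left and Paneth on the right of each panel, lines joining arrays of 1 mouse, and bars giving mean and SD (n = 6). None of the 8 panels shows overlap, and every line runs upward from YFP-LRC to Paneth.

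Of the 12 most strongly lower genes, 10 were in neither the Paneth nor the tuft list. The lists do not hold every gene of a cell type, so a gene outside them can still be expressed in Paneth or tuft cells. Ccnj, which encodes cyclin J, a cyclin of uncertain role in mammals, had 6.95, 7.20 and 7.94 as lowest, median and highest value in YFP-LRC and 8.92, 9.86 and 10.54 in Paneth. It fell by 2.49 ± 0.25 (5.61-fold lower; limma adjusted p = 0.00261) in 11 of 11 probe sets, the largest change in that direction. Cd300lf, an inhibitory receptor of myeloid cells that is also found on mouse tuft cells, where norovirus uses it for entry, had 6.60, 7.08 and 7.72 in YFP-LRC and 8.31, 9.31 and 9.76 in Paneth. It fell by 2.02 ± 0.15 (limma adjusted p = 0.000292), and the difference within a mouse ran only from -2.35 to -1.70.

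Ptprc, the CD45 phosphatase of white blood cells, averaged 5.69 ± 0.34 in YFP-LRC and 7.68 ± 0.39 in Paneth and fell by 1.99 ± 0.21 (3.97-fold lower; limma adjusted p = 0.00266), in 35 of 37 probe sets. Plek, pleckstrin, a protein kinase C substrate of platelets and leukocytes, fell by 1.97 ± 0.19 (limma adjusted p = 0.00242), and Siglecf, a sialic acid-binding receptor of eosinophils, carried in the probe annotation under the older name Siglec5, fell by 1.47 ± 0.14 (limma adjusted p = 0.00261). Groups did not overlap for any of these 3 genes. Ptprc and Siglecf belong to lists of blood cell markers and Plek to none. Those lists were chosen with earlier results of these data known, and a gene on them can be expressed in other cell types. LCC stood at 6.35 ± 0.46 for Ptprc, 5.74 ± 0.55 for Plek and 6.53 ± 0.23 for Siglecf.

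The remaining genes among the 12 most strongly lower ones have other roles. Fbxl21, an F-box protein that targets cryptochromes, fell by 1.85 ± 0.19 (limma adjusted p = 0.00266), and Strip2, a scaffold protein, fell by 1.73 ± 0.20 (limma adjusted p = 0.00449). Ces1c, a carboxylesterase, fell by 1.70 ± 0.25 (limma adjusted p = 0.0123), Spink1, a trypsin inhibitor, fell by 1.54 ± 0.22 (limma adjusted p = 0.0118), and C4bp, a complement regulator, fell by 1.49 ± 0.17 (limma adjusted p = 0.00446). The calls of Ces1c and Spink1 ended without mouse 2 or 3 (up to 0.0712 and 0.0603). Spink1 also overlapped between groups, at 8.92 to 10.50 in YFP-LRC and 10.24 to 12.24 in Paneth.

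Among marker lists of white blood cells, 4 genes passed the test. Of 14 pan-leukocyte genes, Ptprc, Rac2 and Lcp1 fell, 0 rose and 11 did not pass, against 0.458% of all genes called lower. The 11 that did not pass ran from -0.20 to 0.15 with a median of 0.06. The mean over the list was 5.76 to 5.95 on the YFP-LRC arrays and 5.96 to 6.23 on the Paneth arrays, lower in 6 of 6 mice. The list median difference was -0.01, with 7 members positive and 7 negative, so the mean rests on the 3 called genes. Rac2, a small GTPase of blood cells, fell by 1.26 ± 0.18 (limma adjusted p = 0.0123), and Lcp1, an actin-bundling plastin, fell by 0.84 ± 0.15 (limma adjusted p = 0.041), a call that ended without mouse 1, 2, 3, 5 or 6 (up to 0.157). Of 15 T cell genes 0 were called (1 positive and 1 negative at an unadjusted p under 0.05), with Cd3e, a chain of the T cell receptor complex, at 6.67 ± 0.38 in YFP-LRC and 6.35 ± 0.44 in Paneth. Of 18 myeloid and mast cell genes, Siglecf fell, 0 rose and 17 did not pass, and the 17 ran from -0.32 to 0.26, with 0 at an unadjusted p under 0.05 and with Csf1r, the macrophage growth factor receptor, at 5.91 ± 0.09 in YFP-LRC and 5.99 ± 0.25 in Paneth. Of 9 B and plasma cell genes, 16 stromal and endothelial genes and 3 red blood cell genes, 0 were called, with 1, 1 and 0 at an unadjusted p under 0.05. The list means overlapped between the populations for the T cell (5.76 to 5.996 in YFP-LRC, 5.66 to 5.95 in Paneth) and myeloid lists (5.97 to 6.21 in YFP-LRC, 6.11 to 6.22 in Paneth). The array gives no true zero, so whether these markers were at background is not known, and the part of other cells in the lower genes was not tested.

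**Figure D4:**
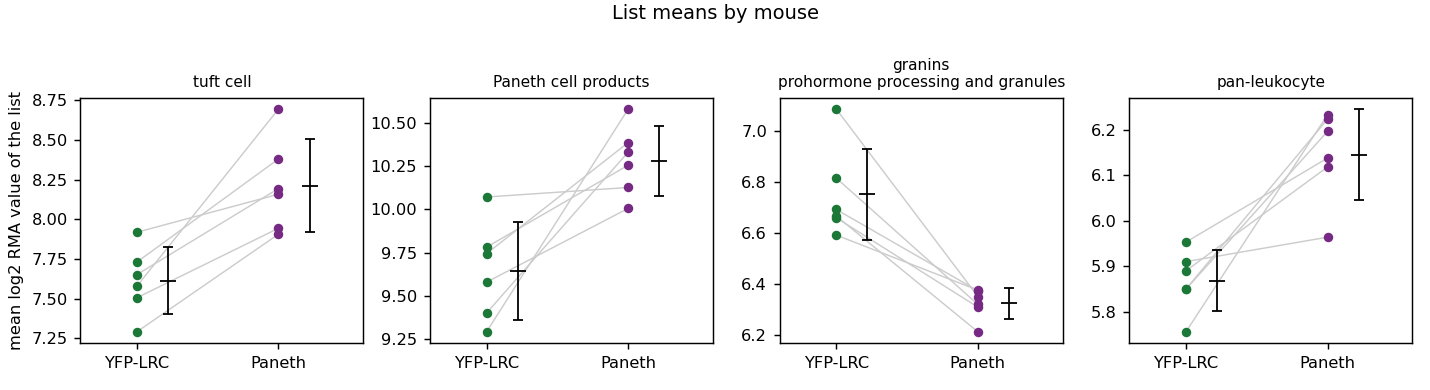
Mean log2 value over the measured members of 4 gene lists on each array, YFP-LRC on the left and Paneth on the right of each panel, with lines joining arrays of 1 mouse and bars giving mean and SD (n = 6). The tuft list lies at 7.29 to 7.92 in YFP-LRC and 7.91 to 8.69 in Paneth, and the pan-leukocyte list, which includes Ptprc, at 5.76 to 5.95 in YFP-LRC and 5.96 to 6.23 in Paneth. The median difference over pan-leukocyte members was -0.01.

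Genes behind the sort gates and the label were looked up as well. Fut2 and Sec1 encode fucosyltransferases of the kind that make the sugars bound by UEA-1, the lectin that separated the populations. Sec1 fell by 1.15 ± 0.15 (limma adjusted p = 0.00814), but of its 3 probe sets 1 was lower and 2 were slightly higher (range -1.32 to 0.12), and it was not called with the mean over probe sets (adjusted p = 0.33). Fut2 averaged 5.96 ± 0.31 in YFP-LRC and 6.74 ± 0.54 in Paneth (difference -0.78 ± 0.23, limma adjusted p = 0.28). Fut1, with 1 probe set, differed by 0.40 ± 0.23 (limma adjusted p = 0.668). Sec1 and Fut2 are closely related neighbours, and their probes could share signal, which was not tested. The mouse gene for CD24 had no probe set assigned to it alone. Cyp1a1, whose promoter drives the label, differed by -0.01 ± 0.16 (95% interval -0.36 to 0.33, limma adjusted p = 0.99). Of 7 genes, the aryl hydrocarbon receptor gene Ahr and targets of the receptor, 0 were called, with 1 at an unadjusted p under 0.05.

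Of 21 measured genes of endoplasmic reticulum stress and secretion 0 were called, while 6 were lower and 0 higher at an unadjusted p under 0.05, with a median of -0.14. Xbp1, the factor that expands the secretory apparatus, differed by -0.39 ± 0.14 (limma adjusted p = 0.413), and the chaperone Hspa5 by -0.09 ± 0.13 (limma adjusted p = 0.9). Dnajb9 had the largest difference of the list (-1.32 ± 0.27, limma adjusted p = 0.0749), at 5.34 to 7.05 in YFP-LRC and 7.27 to 8.67 in Paneth. Dnajc3 differed by -0.72 ± 0.18 (limma adjusted p = 0.185). Outside that list, and named after their values were seen, Spcs2, a subunit of the signal peptidase, fell by 1.13 ± 0.16 (limma adjusted p = 0.0123), Tram1, which helps chains cross into the endoplasmic reticulum, fell by 0.90 ± 0.14 (limma adjusted p = 0.0169), and Ufm1, a ubiquitin-like modifier, fell by 1.18 ± 0.17 (limma adjusted p = 0.0124). Copz2, a coat protein of transport vesicles, fell by 1.40 ± 0.20 (limma adjusted p = 0.0118), Tmed6, a cargo receptor, fell by 1.22 ± 0.23 (limma adjusted p = 0.0455), and Gorasp2, a Golgi stacking protein, fell by 0.84 ± 0.15 (limma adjusted p = 0.0381). Each of these 6 lost its call when mouse 2 was left out, among others, with adjusted p up to 0.187. Of 12 absorptive enterocyte genes, Fabp1, the liver-type fatty acid carrier, fell by 1.19 ± 0.17 (limma adjusted p = 0.0123; 0.0531 without mouse 3, and not called with all 18 arrays), 0 rose and 11 did not pass. The median of that list was 0.19, with 8 of 12 members positive.

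Stem cell, goblet, secretory regulator and cell cycle lists had 0 called members. Of 23 stem cell and Wnt target genes, 2 were higher and 3 lower at an unadjusted p under 0.05, with a median of -0.06. Lgr5, the R-spondin receptor that marks crypt base stem cells, had 8.20, 8.60 and 8.92 as lowest, median and highest value in YFP-LRC and 8.81, 9.29 and 9.55 in Paneth (difference -0.66 ± 0.18, 95% interval -1.05 to -0.27, limma adjusted p = 0.213), and it was called with the mean over probe sets (adjusted p = 0.0495). In LCC, Lgr5 ran from 6.50 to 7.64. Ascl2, a stem cell transcription factor, differed by 0.39 ± 0.17 (limma adjusted p = 0.543). Among 12 secretory regulators (1 lower at an unadjusted p under 0.05), Atoh1, which switches on the secretory fate, differed by 0.07 ± 0.18 (interval -0.32 to 0.47, limma adjusted p = 0.938), and Gfi1, which acts after it, by -0.11 ± 0.14 (limma adjusted p = 0.871). The sign of Atoh1 turned with the mean over probe sets and without mouse 4.

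Of 17 goblet genes, 1 was higher and 3 lower at an unadjusted p under 0.05. Muc2, the gel-forming mucin of the gut, averaged 11.17 ± 0.35 in YFP-LRC and 11.46 ± 0.24 in Paneth (difference -0.29 ± 0.13, limma adjusted p = 0.576), Tff3, a trefoil peptide of mucus, differed by -0.26 ± 0.14 (limma adjusted p = 0.667), and Spink4 by -0.54 ± 0.17 (limma adjusted p = 0.331). Of 19 S phase and 18 mitosis genes, 1 each was higher and 0 lower at an unadjusted p under 0.05, with medians of 0.16 and 0.15. Mice disagreed, as the difference of list means ran from -0.45 (mouse 6) to 0.37 (mouse 5) for S phase. For mitosis it ran from -0.59 (mouse 6) to 0.60 (mouse 5). Mki67, a proliferation marker, averaged 10.84 ± 0.52 in YFP-LRC and 10.67 ± 0.24 in Paneth (difference 0.17 ± 0.16, 95% interval -0.18 to 0.53, limma adjusted p = 0.822), and Pcna, the clamp of DNA polymerase, differed by 0.41 ± 0.18 (limma adjusted p = 0.542). Cdkn1a, an inhibitor of cyclin-dependent kinases, differed by 0.18 ± 0.16 (limma adjusted p = 0.81), and of 7 such inhibitors 1 was lower at an unadjusted p under 0.05. Of 14 immediate early genes 3 were higher at that level, against 3.3% of all genes, with a median of 0.19. Their list mean was higher in YFP-LRC in 6 of 6 mice (8.43 to 9.29, against 8.19 to 9.02 in Paneth). Of 5 position +4 stem cell genes, 0 had an unadjusted p under 0.05.

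**Figure D5:**
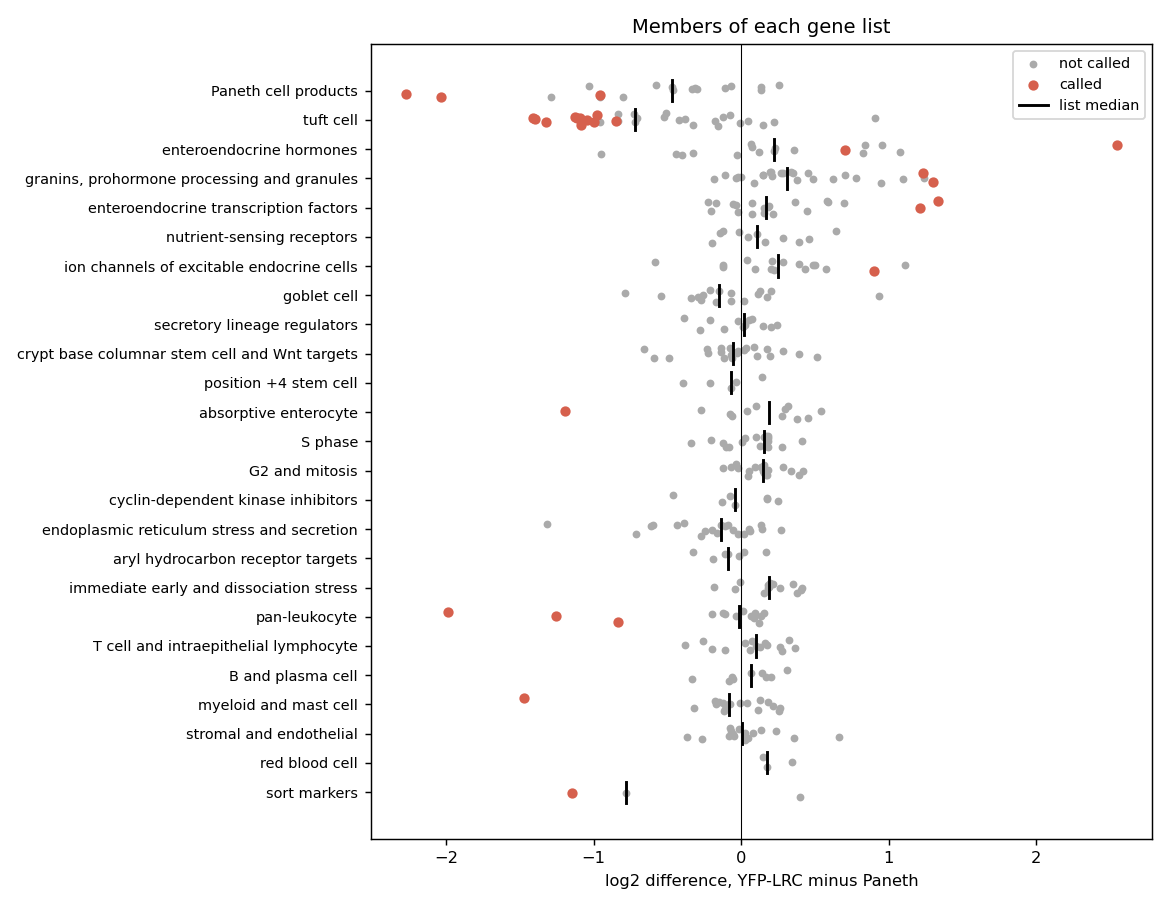
Log2 difference, YFP-LRC minus Paneth, of each measured member of the 25 gene lists, with 1 point per gene, called genes in colour and the list median as a bar. The tuft list (median -0.72, 11 called) and the Paneth list (median -0.47, 3 called) have medians left of 0, and the granin list (median 0.31, 2 called) has its median right of it.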

How the data were processed

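RNA of 12 sorted populations, YFP-LRC and Paneth of 6 mice, was analysed from deposited log2 signals. Per the file headers, these were made from all 18 arrays with Affymetrix Power Tools 1.12.0 by RMA (background correction, quantile normalization, median polish per probe set) for core probe sets of mouse build mm9, so the LCC arrays shaped the normalization too. No scan date, batch or RNA quality value was given, and the number of arrays limits the precision. Of 229581 probe sets, 209279 had 1 gene symbol and were used, and 4446 with several symbols and 15856 with none were left out. Symbols were updated through RefSeq (GRCm38.p6, for names and start regions alone), where 30 of 16380 did not match. An older name shared by several genes went to the only one with no symbol of its own in the probe annotation, a rule added after the values were seen. No filter on low values was applied. Both deposited tables hold the same values.

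Differences were tested with limma 3.58.1 in R 4.3.3, 2-sided, on 12 arrays with mouse as a block and empirical Bayes moderation. The fit was checked on simulated data. The series design text says that all populations came from each of 6 mice, which is where the pairing comes from. The deviations of both arrays of a mouse from their population means correlated at 0.0413 to 0.175. Named were the 12 largest called changes per direction with at least 2 probe sets and the same sign in all 6 mice, called list members and the first 6 measured members of each list. The populations, genes and 25 lists were chosen with earlier results of these data known. Alternatives were the fit without the block, all 18 arrays, other gene values, filters, normalizations, weights and variance models, and leaving out each mouse. Not all list genes had a probe set of their own, and those were not analysed here.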

Additional observations from a re-analysis of the deposited data

Results flagged for a closer look

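In 6 of 174 tested groups of 6 arrays, 1 array lay apart from the other 5 by more than Dixon's 95% critical value, and chance alone flags about 1 in 20 such groups. For Fabp5, the YFP-LRC array of mouse 2 was the lowest at 7.23, against 7.70 for the next. For Pyy, the same array was the highest at 8.01, against 7.60. For Spink4, the YFP-LRC array of mouse 6 was the highest at 12.31, against 11.69. For Ptpn6, the Paneth array of mouse 5 was the highest at 10.32, against 9.27. For Fut1, the Paneth array of mouse 3 was the lowest at 5.17, against 5.91. For Spcs2, the Paneth array of mouse 6 was the lowest at 8.33, against 9.49. The cause was not tested for any of them.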

How the results depend on the processing

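All 50 called genes named here kept their direction under each of the 17 alternatives that tested them. Only the mean over probe sets, the second quantile normalization and centring on the median gene could have turned it. Within every mouse these genes already had the same sign, so leaving out a mouse or weighting arrays could not reverse it. The other alternatives left the difference itself as it was and bear on the calls alone. The 86 calls became 132 with the mean over probe sets (22 higher), and 49 genes were lower with all 18 arrays and no replicate block. Without the replicate block on 12 arrays, 12 were higher and 71 lower, and Ghrl, Cacna2d1, Kcnj5, Spink1, Trpm5, Fyb, Ufm1 and Gorasp2 lost the call while Neurod1 and Inpp5d gained it. Leaving out 1 mouse gave 25 to 67 calls, 6 to 12 higher and 19 to 58 lower, with 6 to 9 and 19 to 51 of at least 2-fold. Of the 86 called genes, 24 to 64 were called again in those fits, and 38 were called under every other alternative that tested them. Signs turned for Atoh1 (-0.34 with the mean over probe sets, -0.0050 to 0.27 leaving out 1 mouse) and Cyp1a1 (0.12 with the mean over probe sets, -0.074 to 0.12 leaving out 1 mouse), neither of them called. A second quantile normalization ended the calls of Nupr1, Trpm5, Ptpn6, Sh2d7, Fyb, Lcp1, Tmed6 and Krt18. The cause was not tested.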
